A study of Homo sapiens with 8 samples.

Results

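LINC-named genes carry the placeholder symbol given to long intergenic non-protein coding RNAs, transcripts that are mostly spliced and polyadenylated like mRNAs but have no long reading frame. Peaks were taken as members when the deposited annotation gave their gene a name of LINC followed by digits, with repeated lines of a list removed. There were 17062 such peaks among 1843422 in the 4 lists, in 908 of 19767 named genes. They comprised 6174 and 5289 peaks of PTBP1 replicates 1 and 2, and 2938 and 2661 peaks of IGF2BP2 replicates 1 and 2. All 908 names matched a RefSeq gene, 861 by current symbol and 47 by an older one.

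Enhanced CLIP (eCLIP), which sequences the RNA fragments crosslinked to a protein, was applied to 2 proteins in A172, an established human glioma cell line. The PTBP1 group was immunoprecipitated (IP) with a PTBP1 antibody and recovered from a membrane between 55 and 130 kDa. The IGF2BP2 group was precipitated with an IGF2BP2 antibody and recovered between 65 and 140 kDa. Each group had 2 IP libraries and 2 paired inputs, made from 2% of the lysate. All cells, inputs included, were grown for 3 h in 500 µM 4-thiouridine and then received 400 mJ/cm2 of UV light of 365 nm wavelength in each of 2 exposures; no genotype or drug differed between the groups. The labels give 2 runs of each experiment and do not say whether these were separate cultures, so p-values measure only the spread between these libraries. The input libraries were used only through the IP-over-input scores of the deposited lists.

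PTBP1, the polypyrimidine tract-binding protein, is a mostly nuclear splicing regulator that binds CU-rich stretches, often in introns. IGF2BP2 is a mostly cytoplasmic protein with KH domains that binds CA-rich and GGAC-containing RNA and is known for stabilising mRNAs. Long non-coding RNAs are often kept in the nucleus, and some are described as scaffolds for RNA-binding proteins. eCLIP reads follow both the affinity of the protein and the amount of its target, so a peak list is no measure of RNA level and does not check the cell type.

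A few sequences under LINC peaks could be read from the RefSeq promoter table (GRCh38.p14), which covers 250 bases before to 50 after each gene start. They are the enriched peaks, or peaks of at least 50 IP reads in LINC01411 and LINC00592, that placed at least 20 bases in such a window. They were picked with their values in view. The first pair lies at least in part under mirrored PTBP1 peaks. A peak is mirrored where a peak of the same library overlaps it on the opposite strand by at least 1 nt. LINC00987 is shown on the plus strand at chr12:9240031-9240122 and LINC00294 on the plus strand at chr11:33076098-33076199. Each is written 5′ to 3′ as DNA, with every base under a peak of any library in capitals, whatever the gene and strand given to that peak, and other flanking bases in lower case.
LINC00987: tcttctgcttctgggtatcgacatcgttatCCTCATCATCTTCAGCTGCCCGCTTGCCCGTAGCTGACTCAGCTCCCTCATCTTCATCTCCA
LINC00294: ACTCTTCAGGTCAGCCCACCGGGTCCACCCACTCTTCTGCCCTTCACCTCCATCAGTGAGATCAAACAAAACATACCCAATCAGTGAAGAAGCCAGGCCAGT

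The LINC00987 capitals held 72.6% pyrimidines, with TCTT 2 times and CATC 4 times, each TCTT sharing bases with a CATC. At the same positions, 19.9% of 35116 RefSeq promoter windows held TCTT and 15.0% held CATC. The LINC00294 capitals held 54.9% pyrimidines, with CTCT and TCTT 2 times each, overlapping both times, and CATC and CATA once each; 39.8%, 29.3%, 22.8% and 13.0% of the windows held these motifs. Over LINC00294 the PTBP1 replicates had 35 IP reads to 4 (log2 2.83, not enriched) and 30 to 3 (3.25, enriched), with the same reads on each strand. The minus-strand peaks begin at chr11:33076178, so the motifs named in LINC00294 lay under plus-strand peaks only. The first capitals lay under PTBP1 peaks that were not mirrored and that the annotation gives to no gene, with 13 to 2 and 10 to 2. The pyrimidine motifs TCTT, or CTCT, or TTTCT, the motifs CATA, or CATC, or CATT, or ACAC, the motif GGAC, and runs of at least 8 pyrimidines, were searched on the printed strand only, and a match is a description, not a site.

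The next pair lies under PTBP1 peaks that occur on a single strand but were not enriched in either replicate. LINC01411 is shown on the plus strand at chr5:174336315-174336403, over an exon at its start, and LINC00592 on the plus strand at chr12:52213534-52213639, in an intron.
LINC01411: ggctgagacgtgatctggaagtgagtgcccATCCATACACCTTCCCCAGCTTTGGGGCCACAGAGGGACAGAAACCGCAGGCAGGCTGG
LINC00592: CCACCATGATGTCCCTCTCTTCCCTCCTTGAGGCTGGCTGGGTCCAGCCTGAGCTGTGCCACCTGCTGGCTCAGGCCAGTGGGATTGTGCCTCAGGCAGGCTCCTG

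The LINC01411 capitals held a run of 8 pyrimidines, CATA overlapping ACAC, and GGAC once each; 21.3%, 6.75%, 13.8% and 21.6% of the windows held these at the same positions. The LINC00592 capitals held a run of 18 pyrimidines, in which CTCT lay 2 times and TCTT once, all overlapping; 40.0% of the windows held a run of at least 8, 43.4% CTCT and 30.8% TCTT. These motifs lay under a peak of PTBP1 replicate 1, of 118 IP reads to 24 (log2 2.00), that the annotation gives to LINC02874. PTBP1 replicate 1 had 78 IP reads to 21 input reads over LINC01411 (log2 1.59) and 61 to 27 over LINC00592 (log2 0.87). Over LINC01411, PTBP1 replicate 2 had a peak at log2 0.24 and IGF2BP2 replicate 1 a peak at log2 -0.11, without recovered reads. PTBP1 replicate 2 had 51 IP reads to 12 input reads over LINC00592 (log2 2.01), and the LINC00592 capitals touched 1 IGF2BP2 peak, of 8 IP reads to 7 in replicate 1.

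The last pair lies under IGF2BP2 peaks enriched in 1 replicate. LINC00472 is shown on the minus strand at chr6:71420696-71420782 and LINC01962 on the minus strand at chr5:181191713-181191795.
LINC00472: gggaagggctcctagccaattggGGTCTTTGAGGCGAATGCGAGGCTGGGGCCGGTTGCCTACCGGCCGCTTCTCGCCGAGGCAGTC
LINC01962: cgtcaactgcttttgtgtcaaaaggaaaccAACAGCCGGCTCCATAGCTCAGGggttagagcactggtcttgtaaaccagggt

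The LINC00472 capitals held TCTT once, as did 20.5% of the windows, and had a GC content of 68.8%; IGF2BP2 replicate 2 had 11 IP reads to 3 there (log2 3.78), and replicate 1 had 5 to 4 (log2 2.06). Both PTBP1 replicates had a peak that overlapped them, with 18 IP reads to 5 (log2 1.55) and 26 to 8 (log2 1.62). The TCTT lay under a peak of IGF2BP2 replicate 2 given to no gene, with 5 to 2 (log2 3.23, not enriched). The LINC01962 peak rested on 6 IP reads to 1 input read in IGF2BP2 replicate 1 (log2 4.32) and overlapped TRT-TGT6-1, a threonine tRNA gene of the RefSeq annotation. PTBP1 replicate 2 had 2 peaks there, both at log2 -1.30. Its capitals held CATA once, as did 3.45% of the windows. The label of a LINC gene therefore did not always name the only transcript under a peak.

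LINC genes held 1.03% and 0.98% of all peaks in the PTBP1 lists and 0.81% and 0.78% in the IGF2BP2 lists. The 2 PTBP1 values lay above both IGF2BP2 values, with means of 1.00% ± 0.033 and 0.79% ± 0.021 (SD, n = 2 each) and a difference of 0.21 percentage points (two-sided exact permutation p = 0.33, the smallest that 2 libraries against 2 can give). Among enriched peaks only, the difference was -0.053 percentage points. PTBP1 peaks of LINC genes had a median length of 40 and 38 nt and IGF2BP2 peaks of 17 and 18 nt. The peaks were concentrated in a few loci: the 10 richest genes held 22.3% of them, while the median gene had 6 over the 4 lists. Peaks of both proteins fell in all 4 lists in 292 genes; 310 genes (34.1%) had PTBP1 peaks only and 96 (10.6%) had IGF2BP2 peaks only, against 11.9% and 3.57% of all named genes. The PTBP1 lists are the longer ones. At least 10 peaks were found in 328 of the 908 LINC genes, against 15145 of 19767 named genes. These shares were not matched for the number of peaks per gene, so they do not show that LINC genes are more exclusive to a protein.

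Most LINC peaks were intronic. Non-coding exons held 14.5% and 15.6% of the PTBP1 peaks and 16.2% and 15.4% of the IGF2BP2 peaks, so the ranges of the proteins overlapped (difference -0.74 percentage points, two-sided exact permutation p = 0.667). The annotation gives the exons of coding genes other labels, so the 1.76% to 1.95% of peaks with this label in all other named genes is not a like measure. In genes whose strand was known, 89.1% and 88.8% of PTBP1 LINC peaks and 88.9% and 89.3% of IGF2BP2 LINC peaks lay on the gene's own strand. Between 6.19% and 9.32% of a library's LINC peaks lay inside the RefSeq span of a protein-coding gene, whose RNA could supply reads as well.

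Among peaks with recovered read numbers, LINC peaks rested on fewer reads than peaks of other genes. Peaks with a negative deposited log2 or without a positive −log10 p had no recovered reads and counted as under 10. Those without a positive −log10 p made up 23.4%, 19.6%, 7.59% and 8.15% of LINC peaks and 25.2%, 22.3%, 11.7% and 10.9% elsewhere. Peaks known to have at least 10 IP reads, or at the cap of the p-value, made up 31.3% and 29.5% of PTBP1 LINC peaks. For IGF2BP2 LINC peaks the shares were 6.57% and 6.69%. In all other named genes of the same libraries the shares were 42.8%, 39.0%, 13.9% and 13.4%. The share was lower in LINC genes in 4 of 4 libraries (mean difference -8.76 percentage points, two-sided exact permutation of signs p = 0.13, the smallest that 4 libraries can give). The median peak had 7 and 6 IP reads in PTBP1 LINC peaks and 4 and 4 in IGF2BP2 LINC peaks, against 12, 10, 4 and 4 elsewhere. These read numbers were recovered from the deposited scores, and PCR reads are not independent molecules, so intervals cover counting error only.

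A peak was called enriched when its log2 IP-over-input ratio and its −log10 p were both at least 3 on a scale common to all chromosomes of a library. By this rule 105 (1.70%, 95% Wilson interval 1.41 to 2.05) and 115 (2.17%, 1.81 to 2.60) PTBP1 LINC peaks were enriched, and 226 (7.69%, 6.78 to 8.71) and 247 (9.28%, 8.24 to 10.4) IGF2BP2 LINC peaks. Over all peaks of the lists the shares were 2.94% and 2.84% for PTBP1 and 9.19% and 9.36% for IGF2BP2. The proteins cannot be ranked from these shares, because an IGF2BP2 peak reached the bar with fewer IP reads per input read (two-sided exact permutation p = 0.33 for the difference of -6.55 percentage points). Within each library, LINC genes had a lower enriched share than all other named genes, whose shares were 2.96% and 2.86% for PTBP1 and 9.18% and 9.32% for IGF2BP2. The mean difference was -0.87 percentage points, with the LINC value lower in 4 of 4 libraries (two-sided exact permutation of signs p = 0.13).

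Among peaks of at least 10 IP reads, the replicates differed. This set leaves out peaks without recovered reads, so it was selected in part by the scores that also define enrichment. Here 5.43% and 7.37% of PTBP1 and 24.4% and 34.8% of IGF2BP2 LINC peaks were enriched, against 6.87%, 7.27%, 24.7% and 25.9% in other genes. The LINC share was lower in 2 of 4 libraries, replicate 1 of each protein (mean difference 1.81 percentage points, two-sided exact permutation p = 0.875). The positive mean came mostly from IGF2BP2 replicate 2, which had 178 LINC peaks of this depth. With the scores as deposited the mean difference was 1.16 percentage points. The direction of the mean difference thus depended on read depth and on the scale.

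**Figure D1:**
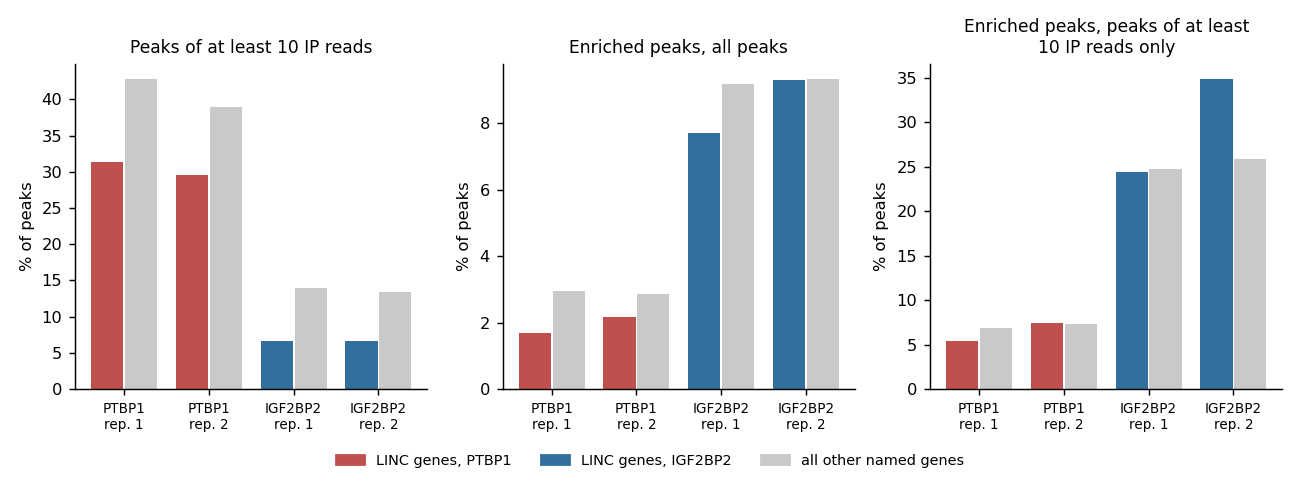
Shares of peaks in percent by library, for LINC genes (coloured bars) and all other named genes (grey bars): peaks of at least 10 IP reads (left), enriched peaks among all peaks (middle) and among peaks of at least 10 IP reads (right). LINC bars are lower in 4 of 4 libraries in the left and middle panels and in 2 of 4 in the right one.

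The direction for reproducibility also changed with read depth. A peak of the other replicate overlapped 48.6% and 56.6% of PTBP1 LINC peaks and 43.8% and 47.8% of IGF2BP2 LINC peaks, against 56.1%, 62.0%, 48.4% and 51.8% in other genes. The LINC share was lower in 4 of 4 libraries (mean difference -5.37 percentage points, two-sided exact permutation of signs p = 0.13). Among peaks of at least 10 IP reads it was higher in 4 of 4 libraries, with 81.1% and 86.7% for PTBP1 and 86.0% and 88.2% for IGF2BP2, against 77.3%, 82.6%, 84.5% and 85.9% (difference 2.91, p = 0.13 in the same exact test). Deep LINC peaks were found again at least as often as deep peaks elsewhere in each of these libraries. Deep peaks here have recovered reads or a p-value at the cap, so they are a selected set of each list.

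Where peaks of the 2 replicates of a protein overlapped, they were joined into a region. Such regions numbered 2807 in 432 LINC genes for PTBP1 and 1172 in 302 LINC genes for IGF2BP2. LINC00673, a long non-coding gene studied in several tumours, had the most regions for both proteins. It held 332 and 291 PTBP1 peaks against 164 and 145 IGF2BP2 peaks, and 197 PTBP1 regions against 75 IGF2BP2 regions. Its enriched peaks were 4 of 332 and 6 of 291 for PTBP1 against 14 of 164 and 12 of 145 for IGF2BP2. IGF2BP2 peaks reach this bar with fewer reads. Over all peaks of the lists the enriched shares were 2.94% and 2.84% for PTBP1 and 9.19% and 9.36% for IGF2BP2. The shares in LINC00673 were no higher, so this is not a trait of the gene. LINC01411 was next, with 278 and 263 PTBP1 peaks against 116 and 108 IGF2BP2 peaks. LINC00842 followed for PTBP1, with 119 and 107 PTBP1 peaks against 76 and 75 IGF2BP2 peaks. In these genes the replicates of a protein lay closer to each other than to the other protein, and PTBP1 had the higher numbers, as in the lists at large.

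**Figure D2:**
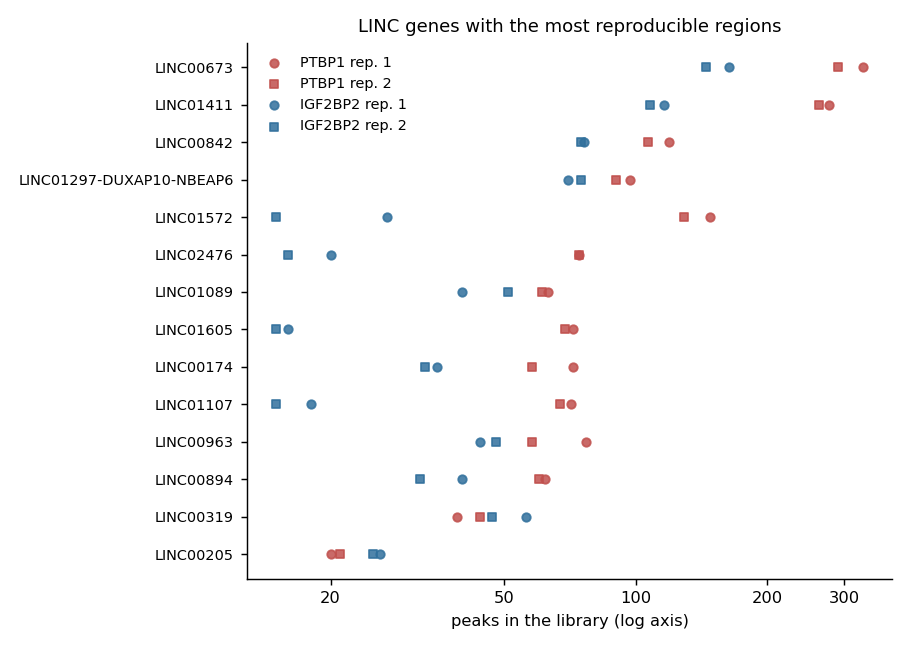
Peaks per library on a log axis in the 14 LINC genes that have the most reproducible regions of PTBP1 or IGF2BP2, for PTBP1 (red) and IGF2BP2 (blue) with replicate 1 as circles and replicate 2 as squares. LINC00673 and LINC01411 stand furthest to the right, and LINC00319 and LINC00205 are the genes where both IGF2BP2 libraries exceed both PTBP1 libraries.

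Other genes with many regions had a steeper balance toward PTBP1. LINC01572 held 148 and 129 PTBP1 peaks against 27 and 15 IGF2BP2 peaks. LINC02476 held 74 and 74 against 20 and 16, LINC01605 held 72 and 69 against 16 and 15, and LINC01107 held 71 and 67 against 18 and 15. The PTBP1 lists are longer, so higher PTBP1 numbers alone do not set these genes apart. As shares of the lists, they were 4.07-fold, 2.54-fold, 2.81-fold and 2.58-fold higher in PTBP1, in the order named. The fused annotation LINC01297-DUXAP10-NBEAP6 was nearer balance, with 97 and 90 PTBP1 peaks against 70 and 75 IGF2BP2 peaks, and 49.7% of its peaks were mirrored. LINC01089, whose peaks were mirrored for 60.9%, held 63 and 61 against 40 and 51.

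Peak density, the share of a library's peaks that lie in a gene, was compared between proteins with limma over all 15145 genes of at least 10 peaks, of which 12.7% passed in the PTBP1 direction and 12.3% in the IGF2BP2 direction at an adjusted p under 0.05. Of the 908 LINC genes, 328 had enough peaks to be tested and 580 had not. PTBP1 density was higher in 49 and IGF2BP2 density in 14, and the median log2 difference was 0.34, against -0.01 over all genes tested. Numbers of IGF2BP2 peaks were small: 24 of the 328 genes had none in either IGF2BP2 list and passed the filter through PTBP1 alone, and 23 of the 49 had at most 1. Among the 304 genes with peaks of both proteins, 30 (9.87%) were higher in PTBP1 and 14 (4.61%) in IGF2BP2, against 11.5% and 12.4% of all 14890 tested genes with peaks of both. The counts were 34 and 6 without PTBP1 replicate 1, 38 and 5 without PTBP1 replicate 2, 96 and 24 without IGF2BP2 replicate 1 and 89 and 24 without IGF2BP2 replicate 2. The number of genes passed was therefore not stable to the loss of a library.

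**Figure D3:**
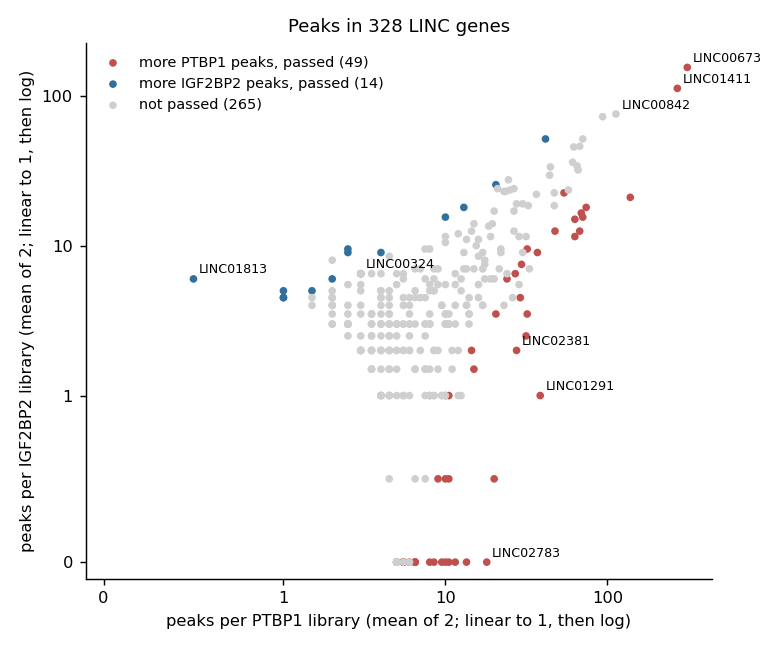
Mean number of peaks per PTBP1 library (horizontal) and per IGF2BP2 library (vertical) for the 328 LINC genes tested, on axes that are linear to 1 and logarithmic above. Red points are the 49 genes with higher PTBP1 density, blue points the 14 with higher IGF2BP2 density and grey points the 265 that did not pass; many red points lie at or near 0 IGF2BP2 peaks.

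Of the genes named for a PTBP1 difference, 7 had no IGF2BP2 peak and entered the test through PTBP1 alone, so only their values are given. LINC02783 had 18 and 18 PTBP1 peaks and 0 and 0 IGF2BP2 peaks. Against a floor of 3 peaks over both IGF2BP2 lists its share was at least 7.41-fold higher in PTBP1, and 61.1% of its peaks were mirrored. LINC02588, now NOVA1-DT, had 16 and 11 PTBP1 peaks against 0 and 0 and was at least 5.56-fold higher. LINC01687 had 14 and 9, LINC01224 had 11 and 10, LINC02120 had 10 and 10, LINC02073 had 10 and 9, and LINC00648 had 9 and 8, all against 0 and 0, with bounds from 3.50-fold to 4.74-fold. All peaks of LINC02120 were mirrored.

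LINC01291 had 40 and 37 PTBP1 peaks against 0 and 2 IGF2BP2 peaks, and LINC00452 had 21 and 19 against 1 and 0. LINC02381 had 31 and 24 against 0 and 4 (log2 difference 3.52), with 71.2% of its peaks mirrored. Without mirrored peaks its difference was 2.43 and did not pass (limma adjusted p = 0.075). These genes too reached the filter of 10 peaks through PTBP1, so their passing is no support for a difference. No gene of these 10 held a PTBP1 region enriched in both replicates. Of all 49 genes with higher PTBP1 density, 7 held one.

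Among genes named for their regions, LINC01572 had the largest difference toward PTBP1 (log2 2.05 ± 0.24 SE, limma adjusted p = 0.0025), followed by LINC01278, with 70 and 56 PTBP1 peaks against 9 and 14 (1.73 ± 0.27, limma adjusted p = 0.0056). LINC01411 (0.58 ± 0.085, limma adjusted p = 0.0049) and LINC00673 (0.32 ± 0.080, limma adjusted p = 0.03) passed with small differences. With PTBP1 replicate 1 left out, LINC00673 had a limma adjusted p of 0.147, and with replicate 2 left out a limma adjusted p of 0.098. LINC00842 did not pass (-0.12 ± 0.11, limma adjusted p = 0.445) over all its peaks. Among its peaks of at least 10 IP reads the difference was 0.90 (limma adjusted p = 0.0094). At that setting the median over all genes tested was 0.66, against -0.01 when all peaks were used.

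The largest difference toward IGF2BP2 was in LINC01813, with 1 and 0 PTBP1 peaks against 4 and 8 IGF2BP2 peaks (log2 difference -3.53, limma adjusted p = 0.024). Without IGF2BP2 replicate 2 it did not pass (limma adjusted p = 0.169), and 84.6% of its peaks were mirrored. LINC01123 had 3 and 2 PTBP1 peaks against 10 and 8 IGF2BP2 peaks (-2.37, limma adjusted p = 0.014), with 65.2% mirrored, and lost its call when PTBP1 replicate 2 was left out (limma adjusted p = 0.065). LINC02346 had 3 and 2 against 13 and 6, LINC00970 had 2 and 2 against 6 and 6, and LINC00513 had 5 and 3 against 9 and 9. LINC00501, LINC01192, LINC01500 and LINC01977 had 1 or 2 peaks in each PTBP1 list. None of the 10 named genes had 10 PTBP1 peaks over both lists. They passed the filter of 10 peaks mostly through IGF2BP2, so their p-values are no support for the direction. Each of the 10 named genes lost its call without at least 1 library, and all rest on few peaks.

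LINC00324 completed the 10, with 3 and 3 PTBP1 peaks against 7 and 6 IGF2BP2 peaks (-1.69, limma adjusted p = 0.044). Its enriched IGF2BP2 peaks, with 90 IP reads to 3 in replicate 1 (log2 6.65) and 173 to 74 in replicate 2 (log2 3.13), lay at the glycine tRNA gene TRG-TCC3-1 on chromosome 17. These peaks did not overlap, at 8221567-8221572 and 8221616-8221620, and the gene had no region enriched in both replicates. LINC00319 had 39 and 44 PTBP1 peaks against 56 and 47 IGF2BP2 peaks (-0.998, limma adjusted p = 0.0084), and LINC00205 had 20 and 21 against 26 and 25 (-1.0, limma adjusted p = 0.017). Among peaks of at least 10 IP reads these differences were 0.62 and 0.20 and did not pass. The median over all genes tested at that setting was 0.66.

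The lists of named LINC genes gave few calls. Of 3 genes reported as partners of IGF2BP proteins, LINC01138 was the one with enough peaks to test, with 31 and 22 PTBP1 peaks against 7 and 18 IGF2BP2 peaks (0.48, limma adjusted p = 0.45); LINC00920 had 1 peak, in PTBP1 replicate 2, and LINC00460 had none. Without IGF2BP2 replicate 2 the LINC01138 difference was 1.18 and passed (limma adjusted p = 0.0018). Of 19 genes described in glioma or other tumours, 15 had peaks and 13 were tested. LINC00673 and LINC01133 were higher in PTBP1, none passed toward IGF2BP2, and 11 did not pass. The median log2 difference of the 13 was 0.29, against 0.34 over the LINC genes tested and -0.01 over all genes. LINC01133 had 34 and 29 PTBP1 peaks against 4 and 1 IGF2BP2 peaks (2.92, limma adjusted p = 0.0098). Of 4 brain-expressed genes, 3 had peaks and only LINC00461, the host of a neural microRNA, was tested, with 5 and 5 against 5 and 6 (-0.81, limma adjusted p = 0.226). At an unadjusted p under 0.05, 117 of the 328 LINC genes (35.7%) differed in either direction, against 40.0% of all genes tested.

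Regions enriched in both replicates numbered 43 of 2807 for PTBP1 (1.53%, against 2.33% of all regions) in 19 genes, and 58 of 1172 for IGF2BP2 (4.95%, against 5.95%) in 35 genes. Introns held 33 of the 43 PTBP1 regions and 48 of the 58 IGF2BP2 regions. The PTBP1 regions rested on a median of 35 and 31 IP reads, and the IGF2BP2 regions on 8 and 9. The counts move with the bar: with both scores at 4 or more, 8 PTBP1 and 16 IGF2BP2 regions were left, and with the scores as deposited there were 212 PTBP1 and 78 IGF2BP2 regions.

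**Figure D4:**
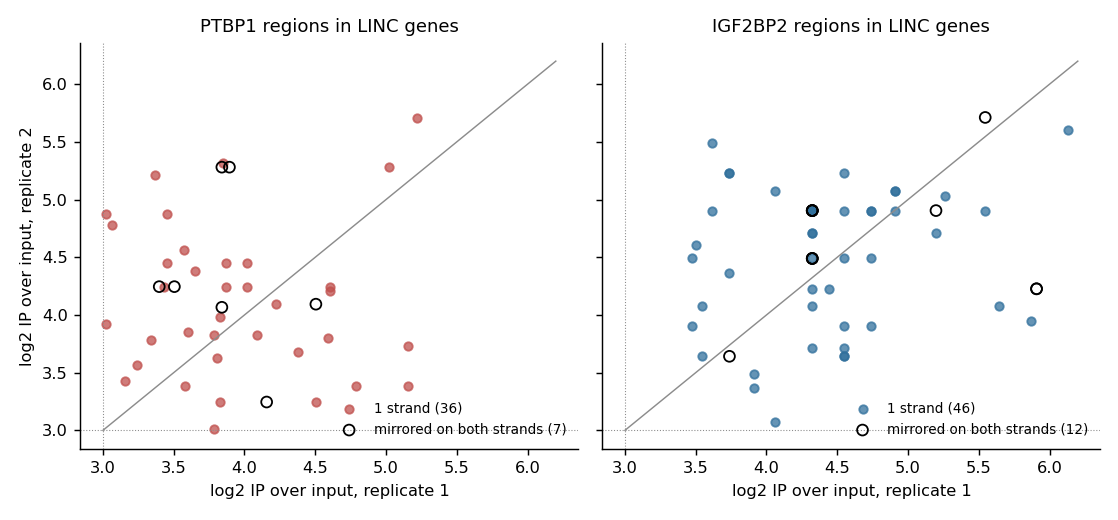
Log2 IP-over-input ratio in replicate 1 (horizontal) and replicate 2 (vertical) of the 43 PTBP1 and 58 IGF2BP2 LINC regions enriched in both replicates; the grey diagonal marks equal values, dotted lines the bar of 3 and open circles mirrored regions. The highest PTBP1 region has 5.22 and 5.70 and the highest IGF2BP2 region 6.13 and 5.61, and the IGF2BP2 points fall on few discrete values because they rest on few reads.

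LINC01411 stood first for PTBP1, with 11 of the 43 enriched regions, against 1 of the 58 for IGF2BP2. It held 189 PTBP1 regions and 53 IGF2BP2 regions in all. Over all regions of the lists, 2.33% and 5.95% were enriched. Its strongest region, chr5:174465862-174465971 on the plus strand, had 46 IP reads to 1 input read and 55 to 1 in the PTBP1 replicates (log2 5.22 and 5.70) and no overlapping IGF2BP2 region. The next lay at chr5:174361593-174361693, with 60 to 3 and 46 to 2 (4.02 and 4.45), and at chr5:174420054-174420128, with 20 to 1 and 20 to 1 (4.02 and 4.25). All 11 were intronic and on the plus strand, and they began between 8.97 and 131.2 kb from the start of the 190.8 kb span. The gene had 22 of 278 and 22 of 263 PTBP1 peaks enriched, against 4 of 116 and 9 of 108 IGF2BP2 peaks. Over all peaks of the lists the shares were 2.94% and 2.84% for PTBP1 and 9.19% and 9.36% for IGF2BP2. The proteins cannot be ranked from these counts. The single IGF2BP2 region, chr5:174395592-174395636, had 9 IP reads to 1 and 8 to 1 (4.91 and 4.90).

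LINC00842 had 4 enriched regions among its 93 for PTBP1 and 3 among its 44 for IGF2BP2. The PTBP1 region chr10:46411053-46411262 had 80 IP reads to 2 and 123 to 3 (log2 5.02 and 5.28), and chr10:46448101-46448174 had 30 to 1 and 20 to 1 (4.60 and 4.25). A stretch just before the first of these was enriched for both proteins: PTBP1 at chr10:46410920-46410970, with 27 to 2 and 31 to 1 (3.45 and 4.88), and IGF2BP2 at chr10:46410921-46410953, with 15 to 1 and 9 to 2 (5.65 and 4.07).

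**Figure D5:**
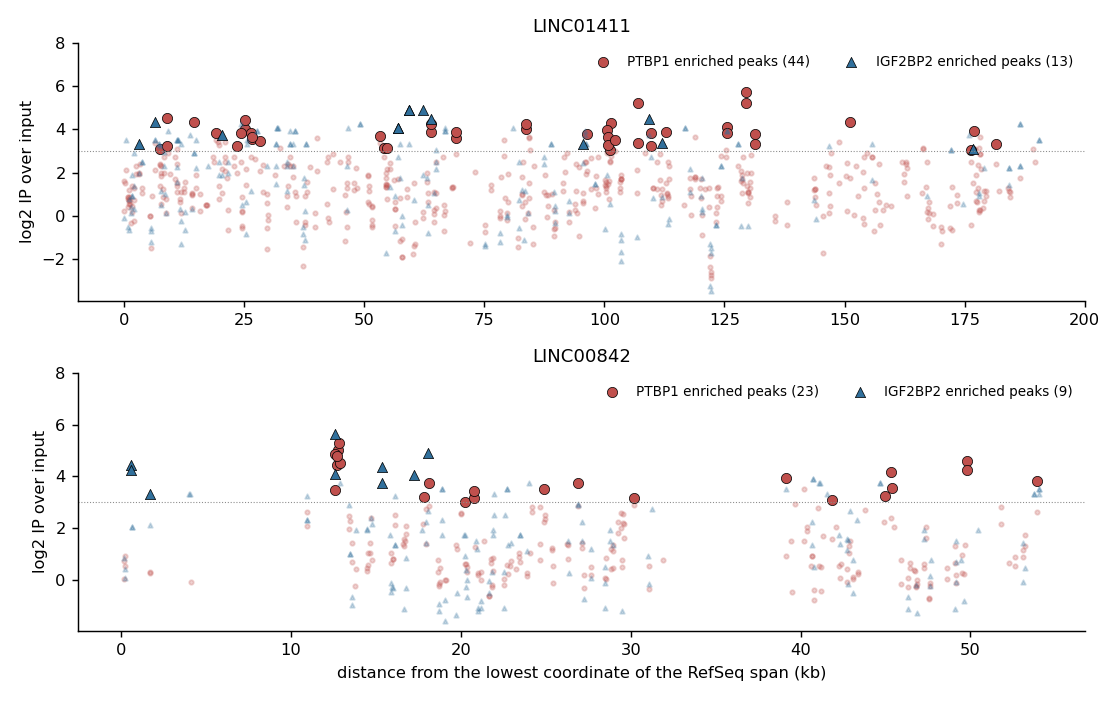
Log2 IP-over-input ratio of every peak along LINC01411 (top) and LINC00842 (bottom), against distance in kb from the lowest coordinate of the RefSeq span, for PTBP1 (red circles) and IGF2BP2 (blue triangles); large outlined symbols are enriched peaks and the dotted line marks a log2 of 3. Enriched PTBP1 peaks recur along LINC01411, and the highest PTBP1 peaks of LINC00842 lie about 12.7 kb in.

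Regions of both proteins met at 461 PTBP1 LINC regions, 16.4% of all 2807, and at 477 IGF2BP2 LINC regions, 40.7% of 1172, against 19.9% and 39.6% of all regions of the lists. Of the enriched regions, 8 of 43 PTBP1 (18.6%) and 15 of 58 IGF2BP2 regions (25.9%) overlapped a region of the other protein, against 15.3% and 28.0% of all enriched regions. At 3 places both were enriched in both replicates. Beside LINC00842, LINC00871 held one at chr14:46316716-46316757 for PTBP1, with 34 IP reads to 1 and 22 to 2 (log2 4.78 and 3.38), which encloses the IGF2BP2 region chr14:46316731-46316748, with 21 to 1 and 13 to 1 (6.13 and 5.61). That was the highest IGF2BP2 value among LINC regions. LINC00158 held the other, for PTBP1 at chr21:25401197-25401352 with 60 to 2 and 39 to 2 (4.60 and 4.21), and for IGF2BP2 at chr21:25401231-25401313 with 10 to 3 and 12 to 3 (3.48 and 3.90).

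Further strong IGF2BP2 regions lay elsewhere in LINC00871 and in LINC02693. The LINC00871 region chr14:46388443-46388477 had a log2 of 5.26 in replicate 1, where the p-value was at the cap of the file and the reads could not be recovered, and 70 IP reads to 8 in replicate 2 (5.03). LINC02693 had an exonic region at chr17:21533002-21533089, with 14 to 1 and 14 to 1 (5.55 and 5.71), and its mirror image on the minus strand at chr17:21533031-21533100, with 11 to 1 and 8 to 1 (5.20 and 4.90). LINC02427 had 2 abutting regions that begin at chr4:184533028, each with 9 to 1 in both replicates. LINC01692 and LINC01813 led by number with 4 regions each, but in both genes they abut or mirror one another within under 50 bases, so each gene had in effect 1 place, of 6 to 8 IP reads per library. Apart from the LINC00871 region of 70 reads, these IGF2BP2 ratios rested on fewer reads than the leading PTBP1 ones.

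Strong PTBP1 regions in other genes were often deeply covered. LINC02228 had 89 IP reads to 5 and 84 to 2 at chr5:25188733-25188804 (log2 3.85 and 5.32). LINC02604 had exonic regions, of which chr7:66905475-66905588 had 119 to 4 and 88 to 6 (4.59 and 3.80). LINC01278 had an exonic region at chrX:63428667-63428743, with 23 to 1 and 18 to 1 (4.22 and 4.09), and a further one in an intron. LINC00839, described in tumours, had an exonic region at chr10:42492164-42492302, with 77 to 3 and 54 to 4 (4.38 and 3.68).

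The mirrored PTBP1 regions coincided with pseudogenes. Of the 43 enriched PTBP1 regions, 7 were mirrored, and all 7 lay in a RefSeq pseudogene of at most 5 kb. None of the 36 regions on a single strand did. The 7 are not separate sites: LINC00987, LINC02613 and LINC00674 each had in effect 1 place, counted on both strands in the first 2. Mirrored enriched regions of other genes were not searched for pseudogenes. LINC00987 held 4 of them, which begin in the printed capitals, some running on past them, and lie in PTMAP4, a pseudogene of the prothymosin gene PTMA. Its strongest, chr12:9240105-9240145, had 56 IP reads to 2 and 54 to 3 (log2 4.50 and 4.09); over the first of the printed capitals the plus strand had 28 to 2 and 40 to 2 and the minus strand 26 to 2 and 40 to 2. LINC02613 held 2, on opposite strands around chr2:38482333-38482403, in RPLP0P6, a pseudogene of the ribosomal protein gene RPLP0, with 55 to 3 and 41 to 1 (3.89 and 5.28) on the minus strand. LINC00674 held 1, at chr17:68134692-68134728 in SH3GL1P3, with 22 to 1 and 20 to 2 (4.16 and 3.25). Reads of a processed pseudogene can come from the mRNA of its parent gene, and whether they did here was not tested.

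Over all LINC peaks, a pseudogene lay under 8.68% and 9.66% of mirrored PTBP1 peaks and 11.7% and 12.9% of mirrored IGF2BP2 peaks, against 1.35%, 1.51%, 2.10% and 1.33% of peaks on a single strand. Among enriched mirrored peaks the PTBP1 numbers were 9 of 17 and 9 of 18, and the IGF2BP2 numbers 0 of 26 and 0 of 38. LINC00987 gave 4 of the 9 in each PTBP1 library, at 1 place. Of the parent genes, PTMA had 27 and 30 PTBP1 peaks, none of them enriched (highest log2 2.30 and 2.19). RPLP0 had 1 enriched peak in each PTBP1 library, and SH3GL1 had 7 of 93 and 5 of 76. For IGF2BP2, the enriched peaks were 2 of 15 and 1 of 12 in PTMA and 1 of 5 and 1 of 8 in RPLP0. In SH3GL1 they were 15 of 131 and 6 of 97. The 12 mirrored IGF2BP2 regions lay in no such pseudogene, and none of the 58 IGF2BP2 regions did. One IGF2BP2 region, of LINC01715 at chr1:28648610-28648639, lay in RNU11, the U11 small nuclear RNA gene of the minor spliceosome, with 35 IP reads to 2 and 33 to 8 (log2 5.87 and 3.95).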

How the data were processed

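Peak lists of 2 PTBP1 and 2 IGF2BP2 IP libraries were analysed. Reads were aligned to hg38 and HISAT2 was used, per the submitters' processing notes; the peak caller is not given in the sources used here. Per the file headers, each deposited peak has a −log10 p-value and a column named Count. The deposited log2 values of that column hold no statement of their making; they were read as a log2 ratio of IP to input reads plus a constant per chromosome, since the commonest value on each of 24 chromosomes equals 3 IP reads to 1 input read by an exact binomial test in all 4 libraries. The deposited overlap length was not used as a measurement, and the deposited −log10 values were capped at 400.

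Each library was set to its median chromosome constant, and IP and input reads were recovered from both scores for 98.9%, 99.1%, 99.8% and 99.9% of the LINC peaks with a p-value between these limits (tolerance 1%). The 4 lists hold 600615, 538802, 362700 and 341305 peaks after removal of repeats; sequencing depth itself is unknown. Regions were joined by overlap of at least 1 nt on a strand. Density was log2((peaks + 0.5) per 10000 peaks of the list) in genes of at least 10 peaks, tested with limma 3.58.1 in R 4.3.3 (trend, Benjamini-Hochberg over all genes, threshold 0.05). Shares were compared with exact permutation tests over libraries. Scripts were tested on simulated data.

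The members, lists and alternatives were chosen with earlier results of these data known. Named genes were the 10 largest differences past the threshold in each direction, the 10 with the most regions and the 12 with the most enriched regions per protein, the 6 strongest regions per protein, and 3 lists; genes named for a pseudogene or small RNA were picked with their values in view. A planned count of motifs in peaks needs a genome and was not run.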

Additional observations from a re-analysis of the deposited data

How the results depend on the processing

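In the density test, higher counts in PTBP1 and IGF2BP2 (49 and 14) were 47 and 24 with a pseudocount of 2. They were 45 and 33 without the filter on peaks, 56 and 12 with TMM scaling and 72 and 33 by nucleotides covered. They were 36 and 4 of 73 tested once peaks under 10 IP reads were dropped, and 3 and 1 of 6 tested for enriched peaks only. They were 44 and 12 without mirrored peaks and 21 and 9 on the annotated strand. These 4 settings tested fewer LINC genes than the 328 of the main test, so their counts cannot be set directly against 49 and 14. With the replicate block the counts were 62 and 19. Same-numbered libraries did not deviate together across genes (r = -0.0016), so the numbers do not pair the libraries. Leaving out 1 library gave 34 to 96 and 5 to 24, where the lone library of a protein is assumed to vary like the other pair.

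The difference in the share of LINC peaks was -0.053 percentage points for enriched peaks only and 0.19 to 0.23 without 1 library. The exon difference was 0.36 for peaks of at least 10 IP reads, 1.04 for enriched peaks only and -1.32 to -0.15 without 1 library. LINC minus other genes in enriched share was 1.16 with scores as deposited, 1.81 for peaks of at least 10 IP reads and -1.14 to -0.66 without 1 library; the enriched share of PTBP1 minus IGF2BP2 was -7.34 to -5.75 without 1 library. LINC peaks found again (means 52.6% for PTBP1 and 45.8% for IGF2BP2) were 44.9% and 42.5% when 50% of the peak had to overlap and 83.9% and 87.1% when peaks under 10 IP reads were dropped.

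Enriched regions numbered 212 for PTBP1 in 46 genes with scores as deposited, and 8 in 5 genes (PTBP1) and 16 in 10 genes (IGF2BP2) with both scores at least 4. For peaks of at least 10 IP reads, the log2 difference was 0.20 in LINC00205, 0.62 in LINC00319 and 2.94 in LINC00674. It was 0.90 in LINC00842 and -1.84 in LINC01812. The median at this setting was 0.66 over all genes tested and 1.19 over the LINC genes tested. For enriched peaks only, the difference was -0.33 in LINC00673 and 2.29 in LINC00842. The cause was not tested. The other alternatives left the direction of the shares above as reported. The exact tests of these shares could not reach 0.05 under any alternative, so their p-values do not show whether the differences hold. The depth of IGF2BP2 LINC peaks, 4 IP reads at the median, limits what can be said of single sites.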
